A study of Mus musculus with 6 samples.

Results

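The genes described here encode the nuclear subunits of the mitochondrial respiratory chain and of the ATP synthase, in mouse dorsal skin after imiquimod. They were taken by gene name from the deposited expression matrix: symbols beginning with Ndufa, Ndufb, Ndufc, Ndufs or Ndufv and a number, Sdha to Sdhd, Uqcr, Cyc1, Cox4 to Cox8, and Atp5. Named pseudogenes were left out, as were Cox6a2, Cox7a1 and Cox8b, the striated muscle isoforms of cytochrome c oxidase. This gave 84 of the 57010 gene rows, which carry 83 symbols because Atp5o stands under 2 identifiers. By complex, 36 rows belong to complex I, 4 to complex II, 9 to complex III, 17 to complex IV and 18 to complex V. Ndufa4, named as a complex I gene, was counted in complex IV, where its protein is a subunit.

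The study compared imiquimod-treated mice (MOD, 3 libraries) with control mice (CON, 3 libraries). Imiquimod, an agonist of Toll-like receptor 7, gives a psoriasis-like inflammation when put on mouse skin. Each MOD mouse had 62.5 mg of imiquimod per day on shaved back skin for 6 days. CON mice had none, and the labels call them wild type. Both groups were given atropine and zoledronic acid before death, per the series' design text. The labels used here name no strain, sex or age. They also do not say whether each library came from a separate mouse, and the p-values below therefore reflect spread among the 6 libraries that may in part be technical. RNA was sequenced from whole skin, and values are TPM, transcript shares corrected for gene length, a unit whose total is the same in every library. The depth behind them is therefore unknown. In bulk skin, fewer cells of a type and less RNA per cell cannot be told apart.

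The respiratory chain takes electrons from NADH at complex I and from succinate at complex II. It passes them through complex III and cytochrome c to oxygen at complex IV, and complex V uses the resulting proton gradient to make ATP. Most subunits are encoded in the nucleus and imported, while a small core of complexes I, III, IV and V is encoded by mitochondrial DNA and made on mitochondrial ribosomes. In skin, epidermal cells also draw heavily on glycolysis, and skeletal muscle lying under the dorsal dermis is far richer in mitochondria. Transcription of the nuclear subunits is classically tied to NRF1, to the ETS factor GABP and to YY1.

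Promoter windows from RefSeq (assembly GRCm38.p6), spanning 250 bases before to 50 bases after the annotated start, were matched by symbol for 67 of the 83 symbols and gave 72 windows. The deposited values were made on GRCm39, per the submitters' processing notes, so these coordinates belong to the older assembly. Each window was searched on both strands for 3 motifs without mismatch, and a window can hold more than 1 of them. The NRF1 core GCGCATGC was in 10 of the 72 windows (13.9%) and in 2.71% of all 32851 windows. The ETS core CGGAAGT was in 11 (15.3%), against 6.42% of all windows. The YY1 core AAGATGGC was in 10 (13.9%), against 2.75% of all windows. At least 1 of the 3 was in 28 windows (38.9%), against 11.1% of all windows. These shares describe letters and not bound sites.

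The stretches of 150 bases below show promoters of 3 genes that rose, Atp5g1, Ndufb5 and Ndufc1, of Cox6a1, whose values were lower in every MOD library, and of Uqcr11, the member with both an NRF1 and an ETS match. They are given 5′ to 3′ on the coding strand, and capitals mark the motif letters. Position 1 is the first transcribed base as RefSeq annotates it. For Ndufb5, Ndufc1, Cox6a1 and Uqcr11 the bases from position 1 were found in a transcript of the GENCODE annotation used here, and for Atp5g1 they were not. All but the Cox6a1 stretch run over positions -120 to 30. The Cox6a1 stretch runs over positions -180 to -31.
Atp5g1, chr11:96075602-96075751, minus strand: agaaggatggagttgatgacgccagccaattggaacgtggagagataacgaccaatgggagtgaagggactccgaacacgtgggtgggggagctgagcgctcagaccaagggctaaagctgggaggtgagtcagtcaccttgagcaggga
Ndufb5, chr3:32736943-32737092, plus strand: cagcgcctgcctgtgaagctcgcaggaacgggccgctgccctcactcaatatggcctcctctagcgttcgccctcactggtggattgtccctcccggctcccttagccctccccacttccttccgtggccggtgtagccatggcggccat
Ndufc1, chr3:51408926-51409075, minus strand: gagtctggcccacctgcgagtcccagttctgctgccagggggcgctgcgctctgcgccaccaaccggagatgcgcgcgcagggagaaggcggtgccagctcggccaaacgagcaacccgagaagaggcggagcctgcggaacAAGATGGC
Cox6a1, chr5:115348989-115349138, minus strand: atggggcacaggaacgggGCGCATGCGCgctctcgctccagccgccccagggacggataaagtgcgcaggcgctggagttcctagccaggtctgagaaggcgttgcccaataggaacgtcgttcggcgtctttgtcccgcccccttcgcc
Uqcr11, chr10:80406792-80406941, minus strand: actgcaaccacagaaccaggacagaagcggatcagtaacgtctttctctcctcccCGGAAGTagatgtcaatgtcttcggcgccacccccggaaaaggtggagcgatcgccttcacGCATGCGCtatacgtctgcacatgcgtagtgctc
The YY1 letters of Ndufc1 began at position 23, inside the transcribed part. Those of Cox6a1 hold the NRF1 core on both strands, from positions -162 and -160. In Uqcr11 the ETS core began at position -65 and the NRF1 core, on the opposite strand, at position -4. The printed stretches of Atp5g1 and Ndufb5 held none of the 3 motifs.

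Before the results, 3 features of the libraries bear on every value below. H2-Ea, a class II histocompatibility gene that some inbred strains do not express, was listed at 0 in the 3 MOD libraries and in CON 2, while CON 1 and CON 3 had 194 and 162 TPM of it. The 20 most abundant genes took 22.5% to 26.1% of the TPM in MOD libraries and 15.2% to 17% in CON libraries, and the median log2 difference of all tested genes was -0.31. Skeletal muscle markers were higher in MOD: 13 of 15 rose and none was at 0 in any library, with summed levels of 26966 to 40969 TPM in MOD and 4084 to 14489 TPM in CON. Hair follicle markers went the other way, since all 9 fell, with sums of 3.56 to 12.6 TPM in MOD and 2587 to 13070 TPM in CON and with Krt31 at 0 in MOD 1 and MOD 2. All 9 tested neutrophil and macrophage markers rose, with sums of 5345 to 10199 TPM in MOD and 281 to 1021 TPM in CON, and the other 2 of the list, Ly6g and Ngp, were too low to test, with Ly6g at 0 in CON 2 and CON 3 and Ngp at 0 in CON 2. The keratinocyte markers that define the labelled tissue were above 0 in every library, at sums of 7015 to 7782 TPM in MOD and 4890 to 8529 TPM in CON. They moved apart: of 7, Krt14 rose by 1.00, while Dsp fell by 2.40 and Trp63 fell by 1.52 on the log2 scale. The part of these cell types in the results below was not tested.

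The nuclear respiratory chain genes changed little as a group. Of the 84 rows, 80 reached 1 TPM in at least 3 libraries and were tested. The other 4 were Cox7b2, Cox8c and the second Atp5o identifier, listed at 0 in all libraries, and Cox6c2, listed at 9.30 TPM in MOD 2 and at 0 elsewhere. With limma on log2(TPM + 1) and Benjamini-Hochberg adjustment over all 15323 tested genes, 4 members rose and 0 fell at an adjusted p below 0.05. Among them were Atp5g1, Ndufb5 and Ndufc1. Without adjustment, 7 of the 80 members were higher and 2 lower at p below 0.05. At that threshold 2269 of all 15323 tested genes were higher and 6392 lower. Of all tested genes 12.5% rose and 36.1% fell, 48.6% in either direction, against 5% of the members that rose. The median difference of the members was 0.10 on the log2 scale, 0.41 above the median of all genes, and 77 of the 80 lay above that median. Over 17 alternative settings the members' median ran from 0.02 to 0.45. Differences of 75 members lay within 0.5 of 0, and 56 were positive and 24 negative.

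The size of the intervals sets what these libraries can show. The 95% interval of a member's difference reached a median of 0.389 to either side of the estimate, from 0.282 for the narrowest to 1.09 for the widest. For 76 of the 80 members the whole interval lay between -1 and 1, that is within a doubling or halving of TPM.

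**Figure D1:**
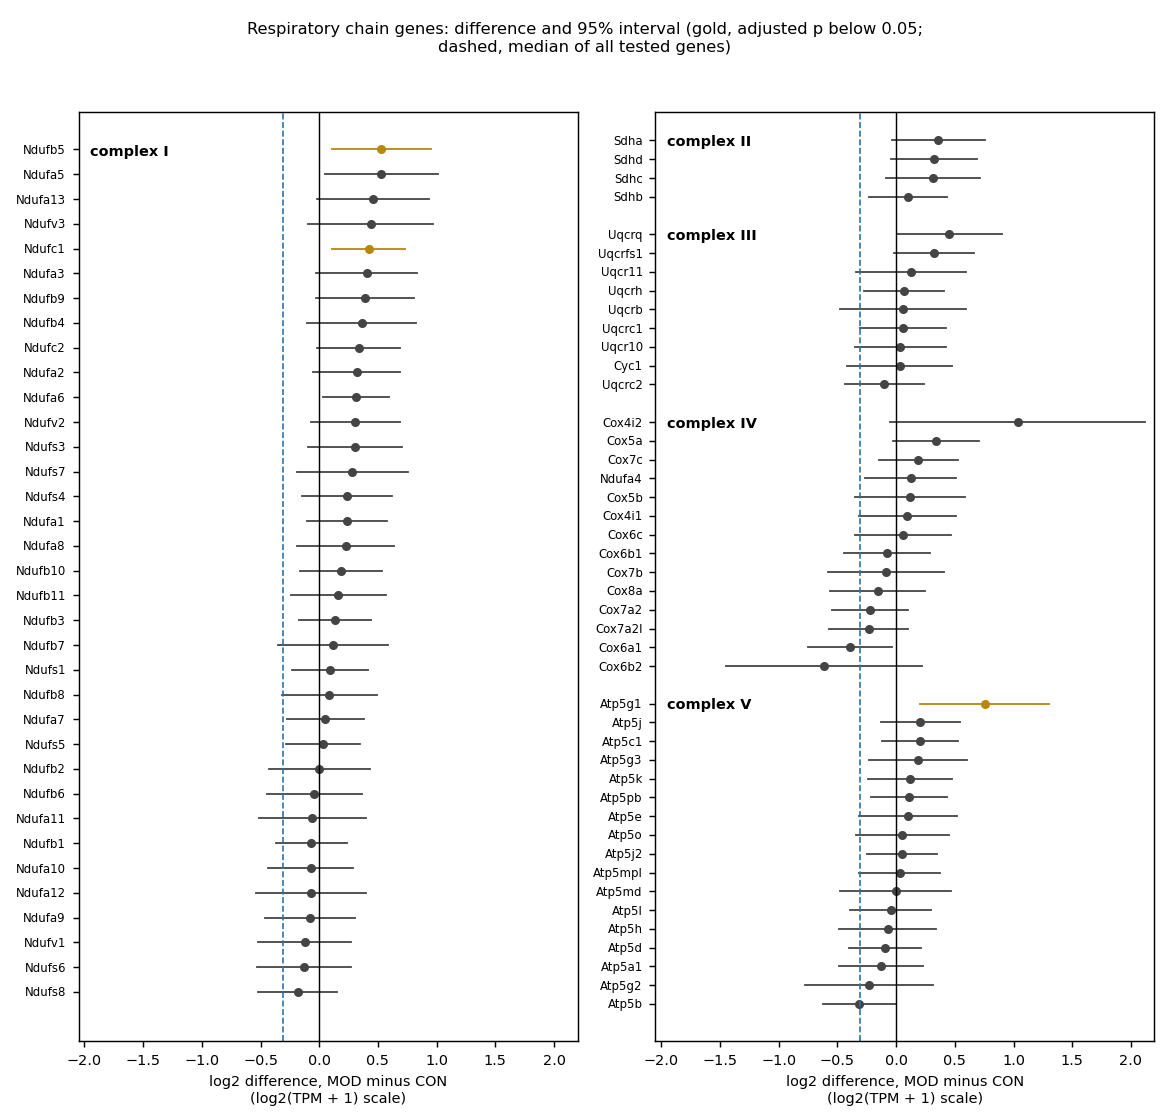
Log2 difference (MOD minus CON, log2(TPM + 1) scale, x axis) of 79 of the 80 tested genes (y axis), by complex, with 95% intervals from limma. Gold marks the 3 genes drawn with an adjusted p below 0.05, the solid line 0 and the dashed line the median of all tested genes at -0.31, to the left of which 3 members lie.

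The count of 4 rests on which libraries enter. CON 3 had the highest value among controls for 71 of the 80 members and the highest of all 6 libraries for 36, while CON 1 had the lowest among controls for 66 and the lowest of all 6 for 50. Within MOD, MOD 1 was highest for 49 members and MOD 3 lowest for 53. Without CON 3, 19 members rose, when 11.3% of all tested genes did. Without any 1 of the other 5 libraries, 0 rose, with 1 to 6 members higher at an unadjusted p below 0.05. With a term for the H2-Ea split, which leaves CON 2 as the only control at 0 beside MOD, 0 members rose, 1 was higher at an unadjusted p below 0.05, and 4.35% of all genes rose. With libraries scaled by the median of ratios, which moves the median of all genes to 0.00, 29 members rose and 20.2% of all genes did. Of the controls, CON 3 also had the highest sum of muscle markers.

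**Figure D2:**
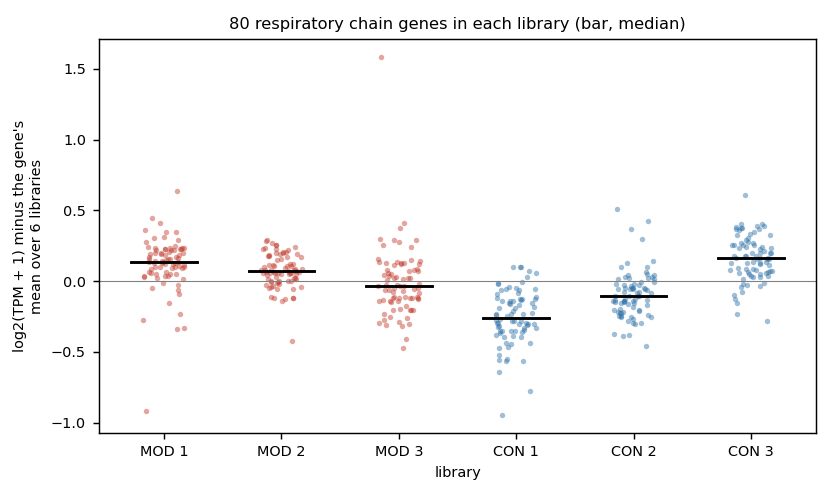
Each point is 1 of the 80 genes, as log2(TPM + 1) minus its mean over the 6 libraries (y axis), by library (x axis), with the library's median as a bar. The medians were 0.14, 0.07 and -0.04 in MOD 1 to MOD 3 and -0.26, -0.11 and 0.16 in CON 1 to CON 3, so the spread among controls is wider than the distance between the groups.

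Ranges of the groups overlapped for most members. MOD libraries all lay above CON libraries for 10 members (12.5%), against 15.5% of all tested genes, and all below for 2 (2.5%), against 44% of all tested genes. Among the 10 were Ndufa3, Ndufa6, Ndufb5, Ndufc1, Ndufc2, Uqcrq, Cox4i2, Cox5a and Atp5g1. The 2 were Cox6a1 and Atp5b.

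The complexes differed in their medians, though no test of that difference was made. Over 17 alternative settings the median ran from 0.09 to 0.56 for complex I, from 0.22 to 0.67 for complex II, from -0.03 to 0.42 for complex III, from -0.08 to 0.35 for complex IV and from -0.02 to 0.41 for complex V.

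Complex I, the NADH dehydrogenase, held 3 of the 4 genes that rose. That is 8.33% of its 36 genes, against 12.5% of all tested genes. Its 36 genes had a median difference of 0.20, and 27 were positive. By functional part, the medians were 0.16 over 10 genes of the NADH-oxidising module, 0.30 over 5 genes of the module that reduces ubiquinone, and 0.16 over 21 genes of the proton-pumping arm. Their summed level was 7797, 7364 and 7063 TPM in MOD and 5566, 6251 and 7922 TPM in CON, and the top control exceeded every MOD library. No complex I gene was lower, even at an unadjusted p below 0.05.

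Ndufb5, an accessory subunit of the proton-pumping arm, stood at 264, 226 and 209.9 TPM in MOD and at 147, 141 and 201 TPM in CON. Its groups were apart by the small gap between MOD 3 and CON 3, and the log2 difference was 0.53 (SE 0.18, adjusted p = 0.044). Ndufc1, a small membrane subunit of the same arm, stood at 155, 141 and 161 TPM in MOD and at 101, 113 and 128 TPM in CON, with a difference of 0.42 (SE 0.13, adjusted p = 0.036). Ndufc1 was named after its values had been seen. Over 17 alternative settings the adjusted p ran from 0.013 to 0.14 for Ndufb5 and from 0.0068 to 0.16 for Ndufc1, and both differences stayed positive.

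Other complex I genes did not pass. Ndufa5, a peripheral accessory subunit, had the same difference as Ndufb5, 0.53, and an adjusted p of 0.067, with values of 239, 220.1 and 190.5 TPM in MOD and 122, 139 and 197 TPM in CON. CON 3 lay inside the MOD range. The accessory subunit Ndufa12, the most abundant gene of the complex, stood at 413, 347 and 299 TPM in MOD and 329, 325 and 467 TPM in CON, with a difference of -0.07 (95% interval -0.54 to 0.39). Ndufb2, nearest to 0, averaged 142 ± 12.2 TPM in MOD and 144 ± 33.4 TPM in CON (SD, n = 3 each). The lowest difference in the complex was -0.18, of Ndufs8, an iron-sulfur subunit, with an adjusted p of 0.31. The least abundant gene, Ndufb4, averaged 41.9 ± 2.66 TPM in MOD and 33.0 ± 8.68 TPM in CON (SD, n = 3 each).

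Complex II, succinate dehydrogenase, is the 1 complex with no mitochondrially encoded subunit, and it also works in the citric acid cycle. All 4 of its genes had positive differences, with a median of 0.32, and none passed, even at an unadjusted p below 0.05. This depended on the setting: over 17 alternatives, Sdha and Sdhd each passed in 3, Sdhc in 2 and Sdhb in 0. Sdha, the flavoprotein that oxidises succinate, stood at 171, 159.6 and 126 TPM in MOD and at 108, 138 and 109.8 TPM in CON. MOD 3 lay below CON 2, and the difference was 0.36 (95% interval -0.04 to 0.75, adjusted p = 0.11). Sdhb, the iron-sulfur subunit, stood at 199, 176 and 154 TPM in MOD and at 154, 157 and 180.4 TPM in CON, a difference of 0.10 (adjusted p = 0.58). Sdhc and Sdhd are the membrane anchors. Sdhc stood at 138, 131 and 149 TPM in MOD and at 97.5, 102 and 142 TPM in CON, a difference of 0.31 (adjusted p = 0.16). Sdhd stood at 169, 159 and 140.2 TPM in MOD and at 108, 121 and 148 TPM in CON, a difference of 0.32 (adjusted p = 0.13). In Sdhb, Sdhc and Sdhd CON 3 lay inside the MOD range.

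Complex III, which passes electrons from ubiquinol to cytochrome c, had a median difference of 0.06 over 9 genes, of which 8 were positive. None rose or fell by limma, and 1, Uqcrq, was higher at an unadjusted p below 0.05. Uqcrq, a small subunit next to cytochrome b, stood at 417, 446 and 437 TPM in MOD and at 250.1, 311 and 406 TPM in CON. Its groups did not overlap, and the difference was 0.45 (SE 0.19, adjusted p = 0.084). Uqcrh, the hinge protein and the most abundant gene of the complex, stood at 762, 754 and 635 TPM in MOD and at 614, 681 and 756 TPM in CON, a difference of 0.07. Cyc1, the cytochrome c1 subunit, was nearest to 0 at 0.03, with values of 159.9, 142 and 168 TPM in MOD and 135, 131 and 201 TPM in CON. The control values spread over a wider range than the MOD values. Uqcr11, whose promoter is printed above, averaged 574 ± 31.6 TPM in MOD and 538 ± 142 TPM in CON (SD, n = 3 each), a difference of 0.12 (adjusted p = 0.63).

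Complex IV, cytochrome c oxidase, was the complex with as many negative as positive differences, 7 of each among 14 tested genes, and its median was -0.01. No gene passed in either direction, and at an unadjusted p below 0.05 none was higher and 1, Cox6a1, was lower. Cox4i1, the common isoform of the largest nuclear subunit and the most abundant gene of the complex, stood at 959, 1051 and 1017 TPM in MOD and at 768, 955 and 1146 TPM in CON, a difference of 0.10 (adjusted p = 0.67). The MOD values lay inside the CON range. Cox6c, nearest to 0 at 0.06, stood at 822, 833 and 589 TPM in MOD and at 656, 733 and 740 TPM in CON.

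Several complex IV subunits come as a widely expressed isoform and a tissue-restricted one. The widely expressed Cox6a1 stood at 616, 751 and 678 TPM in MOD and at 812, 853 and 1031 TPM in CON. Every MOD value was below every CON value, and the difference was -0.40 (95% interval -0.75 to -0.04, adjusted p = 0.067; over 17 settings, -0.47 to -0.04). Its counterparts had negative differences that did not pass: Cox7a2 -0.22 (adjusted p = 0.21) and Cox8a -0.16 (adjusted p = 0.47), with overlapping groups in both. The median of all tested genes was -0.31. Over 17 settings the difference ran from -0.31 to 0.13 for Cox7a2 and from -0.28 to 0.20 for Cox8a, so its sign depended on the setting. Cox7a2l, which joins complexes III and IV into supercomplexes, had a difference of -0.24 (adjusted p = 0.20; -0.41 to 0.12 over 17 settings). Cox6b1 had one of -0.08 and Cox7b one of -0.09.

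The 3 striated muscle isoforms that the choice of genes leaves out all rose. Cox6a2 stood at 515, 348 and 402 TPM in MOD and at 30.8, 80.3 and 136 TPM in CON, a difference of 2.56 (SE 0.50, adjusted p = 0.0073). Cox7a1 had a difference of 1.78 (SE 0.36, adjusted p = 0.0083) and Cox8b one of 1.76 (SE 0.35, adjusted p = 0.0077). Over the 17 settings 1 to 3 of the 3 rose. As a share of the pair's TPM, Cox6a2 made up 45.5%, 31.7% and 37.2% in MOD and 3.65%, 8.6% and 11.7% in CON. Cox7a1 made up 46.0%, 33.3% and 35.4% of its pair with Cox7a2 in MOD and 10.2%, 11% and 19.8% in CON. Cox8b made up 51.2%, 36.6% and 39.3% of its pair with Cox8a in MOD and 12.1%, 15.6% and 21.8% in CON. The groups did not overlap in any of the 3 shares, and within each group the library with the highest sum of muscle markers, MOD 1 and CON 3, also had the highest share. The Cox6a pair summed to 1131, 1099 and 1079 TPM in MOD and to 843, 933 and 1167 TPM in CON, so the sums overlapped while the shares did not. Muscle content as a part of these shares was not tested.

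**Figure D3:**
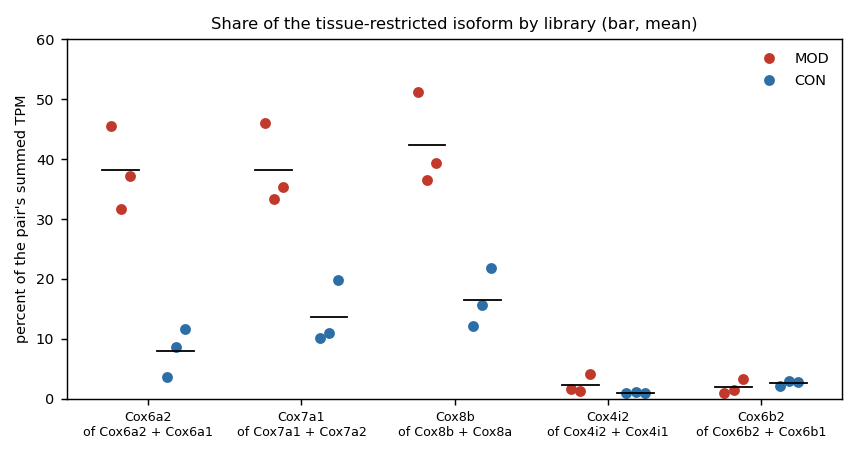
Share (percent of the pair's summed TPM, y axis) of the tissue-restricted isoform in 5 subunit pairs of complex IV (x axis), with 1 point per library, MOD left of CON, and the mean as a bar. The 3 muscle isoforms lie between 31.7% and 51.2% in MOD and between 3.65% and 21.8% in CON, while Cox4i2 and Cox6b2 stay below 5% in all libraries.

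The remaining tissue-restricted isoforms were scarce. Cox4i2, the lung-enriched isoform of subunit 4, stood at 15.1, 12.9 and 44.2 TPM in MOD and at 6.86, 10.6 and 11.9 TPM in CON. MOD 3 stood far above the other libraries, and the difference of 1.04, the largest among the members, had a 95% interval of -0.05 to 2.12 (adjusted p = 0.10). Cox6b2, known as the testis isoform of subunit 6b, stood at 8.23, 12.0 and 22.2 TPM in MOD and at 15.8, 21.5 and 25.6 TPM in CON, a difference of -0.62 (adjusted p = 0.18). It passed in the lower direction without MOD 3 (-0.98, adjusted p = 0.033; range over 17 settings 0.033 to 0.56). Cox7b2 and Cox8c, also known from testis, were listed at 0 in all libraries.

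Complex V, the ATP synthase, had a median difference of 0.05 over 17 tested genes, 0.05 over 9 genes of the catalytic head and stalks and 0.04 over 8 genes of the membrane part. Atp5g1 rose, and none fell by limma, with 1, Atp5b, lower at an unadjusted p below 0.05. Atp5g1 is 1 of 3 genes, with Atp5g2 and Atp5g3, whose proteins mature to the same subunit c of the rotating ring. It stood at 682, 501 and 536 TPM in MOD and at 255, 334 and 446 TPM in CON, and averaged 573 ± 95.7 TPM in MOD and 345 ± 95.6 TPM in CON (SD, n = 3 each). The groups did not overlap, and the difference of 0.75 (SE 0.23, adjusted p = 0.033; 0.014 to 0.15 over 17 settings) was the largest of those that passed.

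Its counterparts did not pass. Atp5g3 stood at 754, 773 and 676 TPM in MOD and at 537, 623 and 798 TPM in CON, a difference of 0.19 (adjusted p = 0.40). Atp5g2 was low throughout, at 11.2, 14.8 and 13.7 TPM in MOD and 11.5, 20.9 and 15.8 TPM in CON. The 3 genes together summed to 1447, 1289 and 1226 TPM in MOD and to 804, 978 and 1260 TPM in CON. Atp5g1 supplied 47.1%, 38.9% and 43.8% of that sum in MOD and 31.8%, 34.1% and 35.4% in CON, with no overlap. These levels depend on gene length: the file gives Atp5g1 a length of 4660 bases, where the tested members have a median of 737.5, and the GENCODE annotation used here lists transcripts of 596, 691, 4660 and 4715 bases for it. The 3 genes and their retrocopies share sequence, so reads could be split among them.

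Atp5b, the catalytic beta subunit and the most abundant gene of the complex, stood at 938, 891 and 811 TPM in MOD and at 1052, 1049 and 1181 TPM in CON. Every MOD value lay below every CON value, with a difference of -0.31 (SE 0.13, adjusted p = 0.087) that equals the median of all tested genes to 2 decimals. Over 17 settings it ran from -0.36 to 0.04. Atp5a1, the alpha subunit of the same head, had a difference of -0.13 (adjusted p = 0.51), with overlapping groups. Atp5md, a small subunit where synthase dimers meet, was nearest to 0 and stood at 876, 853 and 567 TPM in MOD and 688, 806 and 770.4 TPM in CON.

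The mitochondrially encoded partners of these subunits were higher in MOD. Of the 13, 11 rose and 0 fell by limma, none being lower at an unadjusted p below 0.05, with a median difference of 0.95. They summed to 130268, 105381 and 113714 TPM in MOD and to 67247, 65262 and 72241 TPM in CON. Of those that rose, the largest differences were 1.67 for mt-Co3 (SE 0.57, adjusted p = 0.047), 1.45 for mt-Nd3 and 1.17 for mt-Atp6. The values of mt-Co3 were 877, 1058 and 1321 TPM in MOD and 373, 137 and 739 TPM in CON. mt-Co1, the catalytic core of complex IV, stood at 31759.5, 25372 and 30380.1 TPM in MOD and at 11445, 12883 and 17952 TPM in CON, a difference of 1.07 (SE 0.25, adjusted p = 0.014). mt-Co2 had 0.93 (adjusted p = 0.066) and mt-Atp8 0.49 (adjusted p = 0.13). mt-Atp8 was the most abundant of the 13, at 50354, 41128 and 43493 TPM in MOD and 34486, 33063 and 28789 TPM in CON. A large part of their sum is therefore mt-Atp8, which did not pass. Over the 17 settings 3 to 13 of the 13 rose. mt-Atp8 and mt-Atp6 overlap and several of these genes have nuclear copies, so their single values are uncertain.

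On the TPM scale the sum of the nuclear genes did not move alongside. This depends on the scaling: with libraries scaled by the median of ratios, 29 members rose and 20.2% of all genes did. The summed TPM of the 84 was 28506, 27811 and 25037 in MOD and 22843, 24996 and 29604 in CON, or 2.85%, 2.78% and 2.5% of all TPM in MOD and 2.28%, 2.5% and 2.96% in CON. The ratio of mitochondrially encoded to nuclear-encoded TPM was 4.57, 3.79 and 4.54 in MOD and 2.94, 2.61 and 2.44 in CON, with no overlap. By complex the mean ratios were 3.90 in MOD and 2.27 in CON for complex I, 3.03 and 1.85 for complex III, 4.68 and 2.18 for complex IV and 5.18 and 3.8 for complex V. The complex V ratio rests mostly on mt-Atp8, since mt-Atp6 averaged 909.7 TPM in MOD and 390.5 TPM in CON. That of complex IV rests mostly on mt-Co1, which averaged 29170 TPM in MOD and 14090 TPM in CON. Means in MOD and CON were 513 and 284 TPM for mt-Co2 and 1085 and 416 TPM for mt-Co3. Between the groups, the muscle markers above moved in the same direction as the ratio over all complexes. Within MOD the libraries also had the same order in both. Within CON the order was reversed: CON 3 had the highest muscle sum and the lowest ratio, and CON 1 the lowest sum and the highest ratio. The part of muscle in this ratio was not tested.

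**Figure D4:**
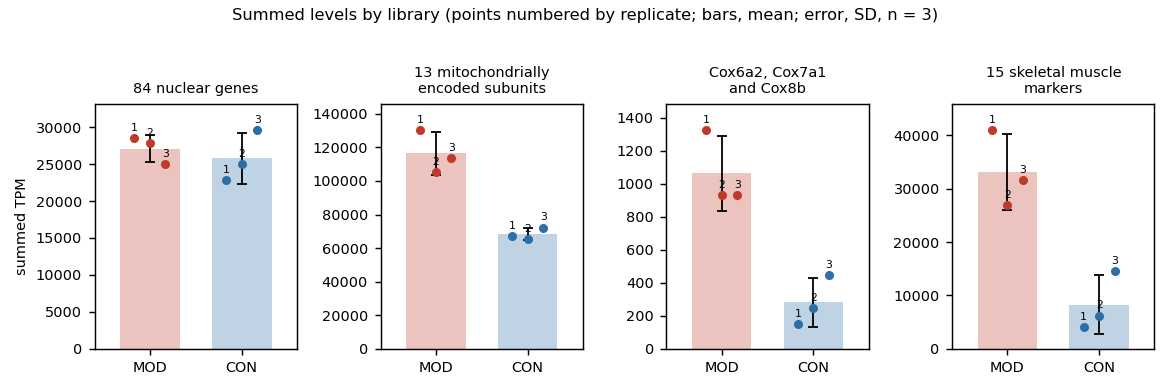
Summed TPM (y axes, each from 0) of the 84 nuclear genes, the 13 mitochondrially encoded subunits, Cox6a2 with Cox7a1 and Cox8b, and 15 skeletal muscle markers, in MOD and CON (x axes). Points are libraries numbered by replicate, bars the mean and error bars the SD (n = 3 each). Only the nuclear genes overlap between groups, at 25037 to 28506 TPM in MOD and 22843 to 29604 TPM in CON.

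Genes that assemble and feed the chain gave mixed counts. Of 18 complex I assembly factors 0 rose and 3 fell (16.7%, against 36.1% of all tested genes), with a median of -0.16, above the all-gene median of -0.31, and none was higher at an unadjusted p below 0.05. Acad9 had the largest of these falls, at 46.2, 68.5 and 60.2 TPM in MOD and 115, 143 and 129 TPM in CON, a difference of -1.15 (SE 0.17, adjusted p = 0.0035). Tmem186 had -0.64 and Nubpl -0.53. Of 35 assembly factors of complexes II to V 2 rose (5.71%, against 12.5% of all tested genes) and 4 fell (11.4%), with a median of -0.01. Lyrm7, which chaperones the Rieske protein of complex III, rose by 1.33, while Cox18, which helps insert a complex IV core subunit, fell by 0.85.

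Of 19 citric acid cycle genes 2 rose (10.5%, near the 12.5% of all tested genes) and 0 fell. None was lower at an unadjusted p below 0.05, and the median was 0.19. Dlat, a subunit of pyruvate dehydrogenase, had a difference of 0.55. Of 13 genes for coenzyme Q, the lipid that carries electrons to complex III, 2 rose (15.4%) and 1 fell (7.69%). Of all tested genes 12.5% rose and 36.1% fell. Coq8a, known to be abundant in muscle, stood at 287, 157 and 184 TPM in MOD and at 17.4, 47.8 and 62.7 TPM in CON, a difference of 2.40 (SE 0.47, adjusted p = 0.0075). Coq10a had 1.28 and Coq3 -0.66.

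Of 19 tested regulators of mitochondrial gene expression, 0 rose and 10 fell (52.6%, against 36.1% of all tested genes), with none higher at an unadjusted p below 0.05. The median of -0.35 was close to that of all genes, -0.31, and 2 to 10 fell over the 17 settings. Among them were factors whose motifs were searched above. Nrf1 stood at 10.5, 11.3 and 13.3 TPM in MOD and at 21.6, 27.4 and 19.5 TPM in CON, a difference of -0.90 (SE 0.17, adjusted p = 0.0065). Gabpa, the DNA-binding subunit of GABP, had -0.84 (SE 0.19, adjusted p = 0.013) and Pprc1, a coactivator, -0.92 (SE 0.22, adjusted p = 0.015). Yy1, named after its value was seen, had -0.47 (adjusted p = 0.021).

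Import and translation genes fell at or below the share of all tested genes that fell, 36.1%. Of 23 genes for the outer membrane, carriers and import 1 rose and 8 fell (34.8%), with a median of -0.28. The ADP/ATP carrier isoforms went opposite ways: Slc25a4, the heart and muscle isoform, stood at 808, 514 and 505 TPM in MOD and at 195, 233 and 378 TPM in CON (difference 1.20, SE 0.29, adjusted p = 0.016). Slc25a5, the widely expressed isoform, stood at 319, 425 and 292 TPM in MOD and at 764, 769 and 752 TPM in CON (difference -1.16, SE 0.16, adjusted p = 0.0029). Tomm40, the import pore, had -0.94. Of 78 mitochondrial ribosome genes 1 rose and 19 fell (24.4%), with a median of -0.25, and the largest fall was of Mrpl3, at -0.87. Of 9 genes of cristae structure 1 fell, Chchd6, at -1.01. The direction of these medians depends on the scaling. With libraries scaled by the median of ratios, the medians were 0.08 for import, 0.10 for the ribosome, 0.14 for cristae structure, 0.18 for complex I assembly, 0.32 for the other assembly factors and 0.17 for coenzyme Q, and the regulators stayed negative at -0.12. Under that scaling 3 import genes, 2 ribosome genes and 3 regulators fell.

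**Figure D5:**
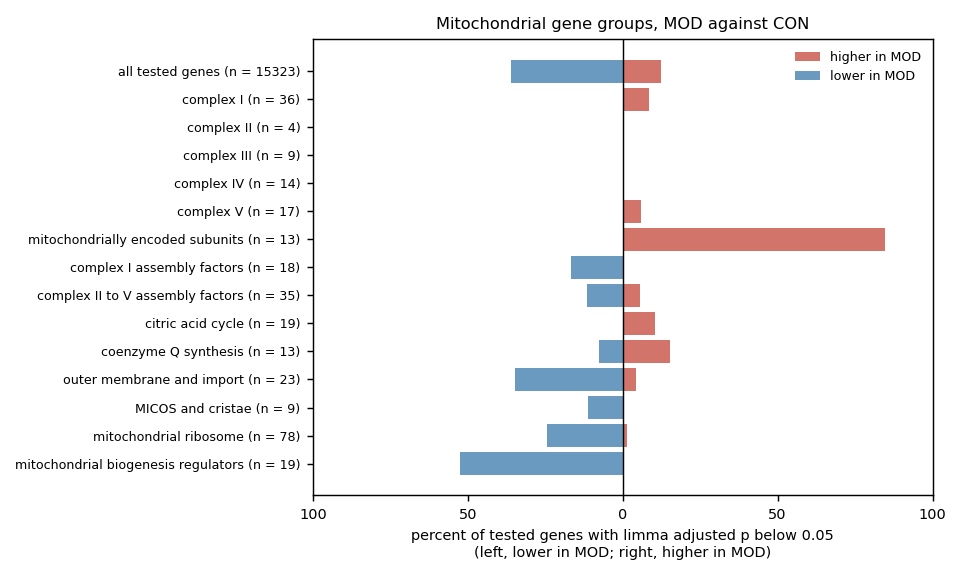
Percent of tested genes (x axis) that fell (left) or rose (right) in MOD against CON by limma at an adjusted p below 0.05, for all genes, the 5 complexes and 9 other mitochondrial gene lists (y axis). The 5 complexes show no falls, where 36.1% of all genes fell, and the mitochondrially encoded subunits are the list with the highest share that rose.

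Genes known to respond to low oxygen, which include enzymes of glycolysis, were higher in part. Of 13 tested, 6 rose (46.2%, against 12.5% of all tested genes) and 0 fell, where 36.1% of all tested genes fell. None was lower at an unadjusted p below 0.05, and the median was 0.45. Differences were positive for 11 and negative for Hif1a (-0.31) and Pdk1 (-0.12). Ldha, lactate dehydrogenase A, stood at 1455, 1216 and 1055 TPM in MOD and at 489, 638 and 790 TPM in CON, a difference of 0.97 (SE 0.22, adjusted p = 0.011). Slc2a1, the glucose transporter GLUT1, had 1.17 (SE 0.21, adjusted p = 0.0052) and Epas1, a hypoxia-inducible factor, 1.13 (SE 0.18, adjusted p = 0.0038). Ldha is also abundant in muscle and in neutrophils, whose markers rose. All 4 erythrocyte markers rose and all 6 proliferation markers fell. The proliferation markers had sums of 194 to 218 TPM in MOD and 519 to 662 TPM in CON.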

How the data were processed

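Whole-skin RNA from 3 MOD and 3 CON libraries was measured by RNA sequencing. The authors deposited 1 matrix of TPM per gene with a gene length; the submitters' processing notes name the build GRCm39, while aligner, counter and annotation were not given in the sources used here. TPM keeps no read counts, so no count model was used and depth is unknown. Groups followed the sample titles. Genes reaching 1 TPM in 3 or more libraries were tested on log2(TPM + 1) with limma 3.58.1 (lmFit, eBayes with trend, two-sided) in R 4.3.3, with Benjamini-Hochberg adjustment over all 15323 genes and a threshold of 0.05. Log2 differences are MOD minus CON and understate changes of low genes. The fit was tested on simulated data. No 2 libraries had identical values for more than 1.02% of the tested genes, values of 0 included.

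The members, lists and tests were chosen with earlier results of these data known, and the lists are described by counts and medians without a test of their own. Genes were named by a rule: all 4 of complex II; in each other complex the most abundant, the largest rise, the largest falls and the nearest to 0; the isoform sets; and of other lists the 3 largest changes that passed. No member met a further part of the rule, a library standing apart along the H2-Ea split. Other genes were named after their values were seen. The 17 alternatives changed the pseudocount (0.1, 0.5), the filter (none, 5 TPM), the scaling, the trend, a replicate block, an H2-Ea term and the libraries left out. Promoter sequences are from RefSeq. Some results are not reported here.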

Additional observations from a re-analysis of the deposited data

How the results depend on the processing

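The count of 4 members that rose was 0 with no filter on low values, 29 with median-of-ratios scaling, 12 with quantile normalization, 11 without the 20 most abundant genes in the scaling, 0 with an H2-Ea term, 1 with the replicate block and 2 with eBayes without trend. Leaving out 1 library gave 0 to 19 (19 without CON 3). The 4 called genes were among those called in each of the settings with 11 or more. The cause of these moves was not tested. More genes are tested with no filter, and fewer libraries enter when 1 is left out. The count of 0 that fell was 1 (Cox6b2) with the replicate block and 0 to 1 when leaving out 1 library. Replicate numbers follow the sample titles, and the matrix's own column names number some controls differently. Deviations of libraries with the same title number correlated at 0.005, 0.069 and 0.066. These values cannot show whether libraries were paired in another way. Median differences under median-of-ratios scaling were 0.56, 0.67, 0.42, 0.35 and 0.41 for complexes I to V. Complex II had 0.50 with quantile normalization, and complex IV 0.15 without the 20 most abundant genes. Among the values of 26 named genes under 17 alternatives, 397 kept their call, 33 lost it, 12 gained it and 0 reversed, and 39 changed sign with no call in either fit. TPM, 3 libraries a group and controls that differ in H2-Ea limit what can be said of small differences.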

Other observations

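Of the 15 named pseudogene rows that were left out, Ndufa12-ps followed the H2-Ea split, an observation made after its values were seen. It was listed at 0, 0.27 and 0 TPM in MOD 1 to MOD 3 and at 24.3, 0.30 and 44.6 TPM in CON 1 to CON 3, so that the libraries with H2-Ea were also those with Ndufa12-ps. Its parent gene Ndufa12 had 329 TPM in CON 1, 325 TPM in CON 2 and 467 TPM in CON 3. No other left-out pseudogene row was above 7.55 TPM in any library.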
